A study of Mus musculus with 2 samples.

Results

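Small leucine-rich proteoglycans are secreted matrix proteins, and the 10 genes Lum, Dcn, Bgn, Fmod, Ogn, Omd, Prelp, Kera, Aspn and Chad of this family were followed in hindlimb skeletal muscle. They were chosen by name, as every probe set whose platform annotation gives one of these symbols, and each gene had 1 probe set, so the members are 10 of 19938 genes with a named probe set. RNA came from male C57BL/6J mice on standard chow, and 1 array was run for wild-type mice and 1 for mice with a Syn4 (syntaxin 4) overexpression transgene. The series concerns lifespan and insulin sensitivity of the transgenic mice, and the arrays address which muscle transcripts differ between the genotypes. Age, the number of mice behind an array, pooling and the promoter that drives the transgene are not stated in the sources used here. With 1 array per genotype there is no spread between mice, so every value below is a single measurement without an error and no difference was tested.

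Proteins of this family carry a core of leucine-rich repeats that forms a curved solenoid, and several of them bind fibrillar collagens and influence the width and spacing of the fibrils. Many carry sulfated sugar chains, of chondroitin or dermatan sulfate in class I and of keratan sulfate in class II, and some also bind growth factors or cell surface receptors. In skeletal muscle they are made mainly by connective tissue cells around the fibres and in tendon.

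The deposited values are RMA intensities on a log2 scale, and each difference is the transgenic minus the wild-type value, so that 1 unit is a doubling. Intensities of different probe sets depend on their sequences and are not compared with each other. A gene was counted as higher or lower when it differed by at least 1.5-fold (0.585 on the log2 scale) and its higher value was at or above 6.79, the median of the higher value over all genes. This level filter kept 9974 genes and 9 of the 10 members, all but Omd. Stx4a, the gene of the transgene's product, was at 8.84 on the wild-type array and 12.20 on the transgenic one. All 11 muscle fibre markers lay between 13.11 and 14.45 in both arrays, so the labelled tissue carried its defining transcripts.

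Among the members, 8 of 10 were above 0 and 2 below. Over all genes 46.9% were above 0. Over the genes that passed the level filter it was 53.5%, against 7 of the 9 members that passed it, each of them on both arrays. The median difference of the 10 members was 0.20, beside 0.00 for all genes and 0.03 for those that passed the filter. Only Lum was higher by 1.5-fold, where the background was 2.66% of the filtered genes, and no member was lower by 1.5-fold on the deposited scale, where it was 1.71%. A count of 1 in 9 rests on a single probe set. The 3 members of class I lay within 0.27 of 0, as did Ogn, Omd and Fmod. In bulk muscle, fewer cells of a type cannot be told apart from less RNA per cell. The same 8 and 2 members lay above and below 0 after median centring, after removal of a loess trend and after repeated quantile normalization.

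**Figure D1:**
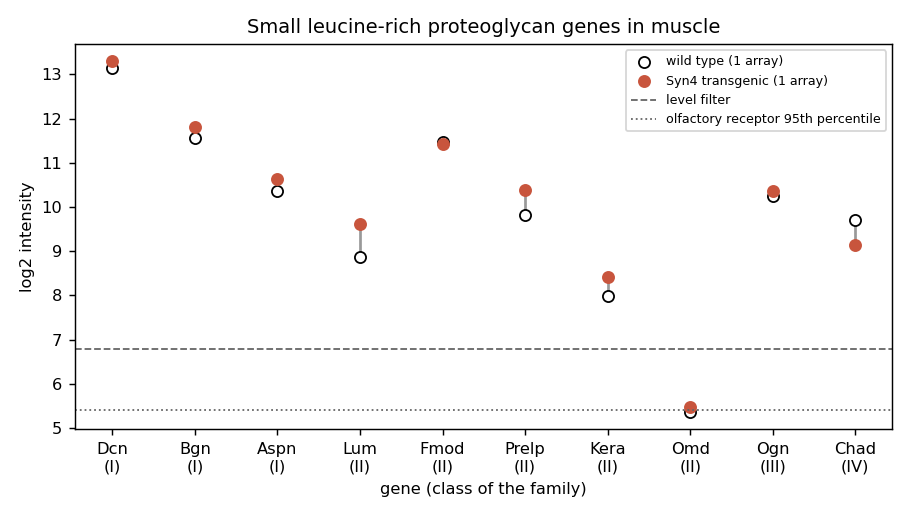
Log2 intensity (y axis) of the 10 members (x axis, with their class in brackets) in the wild-type array (open circles) and the transgenic array (filled circles), joined by a line for each gene. Lum shows the widest upward gap (8.87 to 9.61), Chad the widest downward gap (9.71 to 9.14), and Omd lies under the level filter of 6.79 and close to the olfactory receptor percentile of 5.42.

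For orientation in the genome, RefSeq's promoter table (GRCm38.p6) was searched by symbol and matched 8 of the 10 members, Lum and Dcn not among them. The 250 bases before the annotated start are shown for 4 of the 6 members whose window lies outside the gene's own annotated span. They are Chad, the lowest member, Fmod, the member nearest to 0, and Bgn and Aspn, class I genes with nearly equal differences. Capitals mark matches, on either strand, to TATAAA (the TATA box), to CCAAT, to GGGCGG (the GC box) or to TGANTCA (the AP-1 motif), and each sequence is written 5′ to 3′ on the gene's strand.
Chad, chr11:94564797-94565046, plus strand: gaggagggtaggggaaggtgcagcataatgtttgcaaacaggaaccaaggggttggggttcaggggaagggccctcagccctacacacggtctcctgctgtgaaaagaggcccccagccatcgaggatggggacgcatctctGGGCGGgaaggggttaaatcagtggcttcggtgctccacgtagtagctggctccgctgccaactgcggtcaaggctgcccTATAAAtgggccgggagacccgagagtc
Fmod, chr1:134037004-134037253, plus strand: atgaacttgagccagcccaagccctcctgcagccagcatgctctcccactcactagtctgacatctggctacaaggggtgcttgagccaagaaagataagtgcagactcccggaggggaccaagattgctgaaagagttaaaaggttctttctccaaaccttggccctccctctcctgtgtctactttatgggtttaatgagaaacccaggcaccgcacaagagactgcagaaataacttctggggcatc
Bgn, chrX:73483351-73483600, plus strand: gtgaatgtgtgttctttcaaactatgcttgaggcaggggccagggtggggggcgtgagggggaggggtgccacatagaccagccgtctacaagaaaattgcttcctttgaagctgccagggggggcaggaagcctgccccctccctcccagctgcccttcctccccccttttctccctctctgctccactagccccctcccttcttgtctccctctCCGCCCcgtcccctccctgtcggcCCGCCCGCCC
Aspn, chr13:49544193-49544442, plus strand: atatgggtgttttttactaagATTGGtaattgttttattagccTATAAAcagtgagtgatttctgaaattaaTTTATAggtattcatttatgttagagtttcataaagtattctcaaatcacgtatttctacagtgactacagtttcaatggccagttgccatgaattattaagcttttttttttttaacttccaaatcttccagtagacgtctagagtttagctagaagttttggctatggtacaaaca

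The Chad window held a TATAAA that starts 28 bases before the annotated start, and a GC box. It had 60.4% G and C. The Fmod window (51.2% G and C) held none of the 4 motifs. Bgn and Aspn differed by 0.25 and 0.27, and their windows were unlike in base composition. Bgn had 64.4% G and C with 3 matches to the GC box, of which the last 2 overlap, while Aspn had 30.0% with 2 TATAAA matches and 1 to CCAAT. The TATAAA matches of Aspn begin 207 and 178 bases before the start. Of the 32851 windows of this length in the table, 12.4% held TATAAA, 33.8% CCAAT, 32.7% GGGCGG and 6.75% TGANTCA. A match describes these letters and does not show that a factor binds there. The Chad window overlaps the annotated span of Acsf2, and the Aspn window overlaps that of Cenpp. These neighbours were at -0.07 and 0.15, and Cenpp was under the level filter.

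The class I members were all slightly higher in the transgenic array. Dcn encodes decorin, which binds collagen and restrains TGF-beta. It was at 13.15 on the wild-type array and 13.29 on the transgenic one, a difference of 0.14 (1.10-fold). Bgn, which encodes biglycan, a decorin relative that also binds sarcoglycans at the muscle cell surface, was at 11.56 and 11.81, a difference of 0.25 (1.19-fold). Aspn encodes asporin, which binds collagen but lacks the sugar chains of its relatives. It was at 10.36 and 10.63, a difference of 0.27 (1.21-fold). The transgenic value was the higher in each of these genes, by amounts that 31.2%, 16.8% and 14.9% of the filtered genes equalled or passed. Relative to Dcn, Bgn was higher by 0.11 and Aspn by 0.13, so class I lay within a narrow band.

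Class II held both the member with the largest difference and the one nearest to 0. Lum encodes lumican, a keratan sulfate proteoglycan that regulates collagen fibril assembly. It was at 8.87 on the wild-type array and 9.61 on the transgenic one, a 1.67-fold higher level (0.74). A difference at least that high was seen in 1.54% of the filtered genes. Prelp encodes a protein with a basic, heparin-binding end that is thought to anchor basement membranes to collagen. It was at 9.83 and 10.39, 1.47-fold higher (0.56), just short of the rule of size, and 2.97% of the filtered genes were at least that high. Kera encodes keratocan, known from the cornea and also made in tendon. It was at 7.99 and 8.41, 1.34-fold higher (0.42).

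The other class II members differed little. Fmod encodes fibromodulin, which shares a collagen-binding region with lumican and is prominent in tendon. It was at 11.46 on the wild-type array and 11.42 on the transgenic one, a difference of -0.04. Omd encodes osteomodulin, a protein of mineralised tissue, and was at 5.37 and 5.47. Both Omd values lie next to 5.42, the 95th percentile of 1027 olfactory receptor genes, which muscle is not known to use, and its difference was 0.10. Within the arrays, Lum was higher relative to Fmod by 0.78, a 1.72-fold shift between these class II genes, and Prelp relative to Fmod by 0.60 (1.52-fold). Class II as a whole spread from -0.04 to 0.74, with a median of 0.42, and class I from 0.14 to 0.27, with a median of 0.25.

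Members of the other classes lay apart from each other. Ogn, which encodes osteoglycin or mimecan, was at 10.24 on the wild-type array and 10.37 on the transgenic one, a difference of 0.13. Chad encodes chondroadherin, a cartilage and tendon protein that binds the collagen receptor integrin alpha2beta1. It was at 9.71 and 9.14, 1.48-fold lower (-0.57). A difference at least that low was seen in 1.87% of the filtered genes. Chad missed the rule of size by a margin near the 2 decimals of the deposited values, and it passed the rule after median centring (-0.59), removal of a loess trend (-0.60) and repeated quantile normalization (-0.61). Lum minus Chad, the widest contrast among the members, was 1.31, a 2.48-fold shift of the ratio of these genes.

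**Figure D2:**
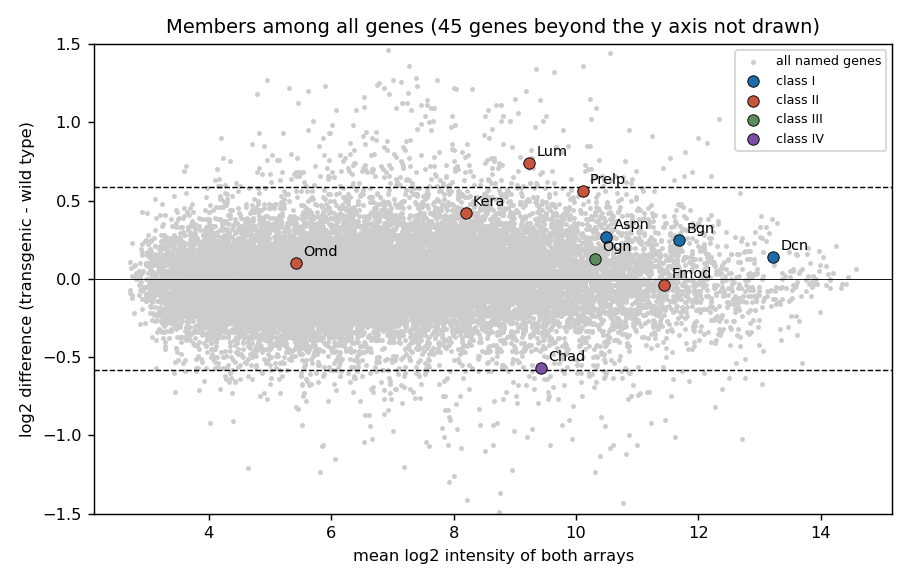
Log2 difference, transgenic minus wild type (y axis), against the mean log2 intensity of both arrays (x axis) for all named genes (grey) and the 10 members (coloured by class), with dashed lines at 1.5-fold. Lum lies above the upper line, Prelp (0.56) just below it and Chad (-0.57) just inside the lower line, and 45 genes beyond 1.5 log2 units are not drawn.

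Most members sit next to each other in the genome, and RefSeq's gene order was used to set them beside their neighbours. On chromosome 10 the order is Dcn, Lum, Kera and Epyc, and all were above 0, at 0.14, 0.74, 0.42 and 0.16. Epyc, which encodes epiphycan of cartilage, was at 4.09 and 4.25, under the level filter. The measured genes flanking this cluster, Btg1 and Eea1 on the Dcn side, were at 0.18 and 0.27, and those on the Epyc side, Gm10754 and Ccer1, were at 0.12 and -0.22, both under the level filter. On chromosome 13 the order is Ecm2, Aspn, Omd and Ogn, at 0.27, 0.27, 0.10 and 0.13. The flanking genes were at 0.31 (Nol8) and 0.34 (Iars) on the Ogn side, and at -0.24 (Tes3-ps, under the level filter) on the Ecm2 side. Cenpp (0.15, also under the level filter) comes before Ecm2 by start position. Its annotated span overlaps the windows before Aspn, Omd and Ogn, so it is not a gene outside the cluster. On chromosome 1 Prelp (0.56) lies between Optc, which encodes opticin (-0.11, under the level filter), and Fmod (-0.04). Beyond Fmod lie Btg2 (0.33) and Chit1 (-0.01), and beyond Optc lie Lax1 (0.18) and Snrpe (-0.09), of which Chit1 and Lax1 were under the level filter. Lum was higher relative to Dcn by 0.60 and Prelp relative to Fmod by the same amount, while Ogn was higher relative to Omd by 0.03. Chad on chromosome 11 and Bgn on chromosome X have no relatives beside them. Around Chad, Rsad1 was at 0.03, Acsf2 at -0.07, Lrrc59 at 0.39 and Eme1 at 0.05. The annotated span of Acsf2 overlaps the window before Chad. Around Bgn, Haus7 was at -0.12, Trex2 at 0.15, Atp2b3 at -0.26 and Dusp9 at 0.02, and of these 8 genes Eme1, Trex2 and Dusp9 were under the level filter. The flanking genes were chosen by start position, from the nearest measured genes, after the members' values were known.

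**Figure D3:**
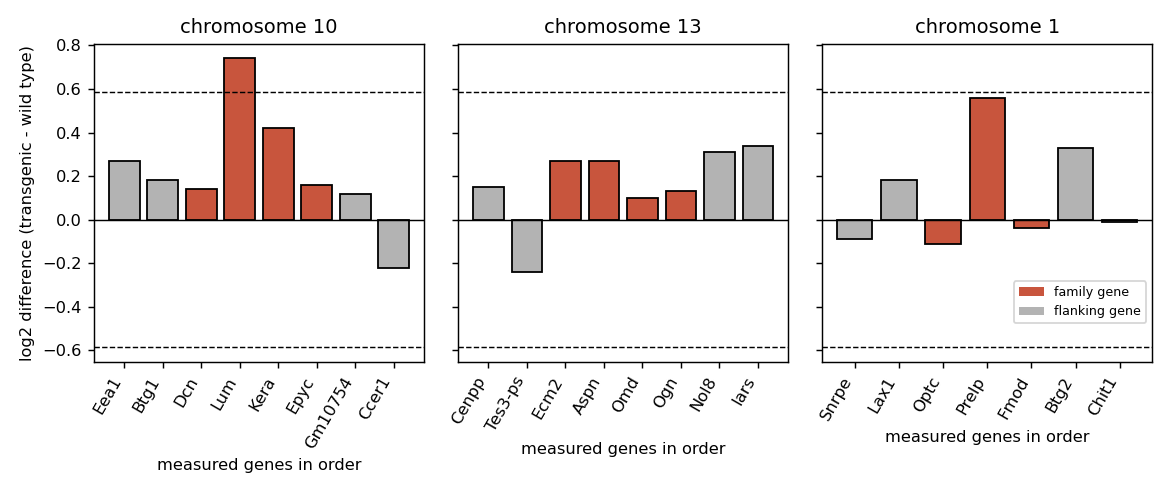
Log2 difference, transgenic minus wild type (y axis), of measured genes in order of annotated start (x axis) around the 3 clusters of the family. Family genes are red, flanking genes by start position are grey, and dashed lines mark 1.5-fold. On chromosome 10 Lum (0.74) stands above its neighbours Dcn (0.14) and Kera (0.42), and on chromosome 1 Prelp (0.56) stands between Optc (-0.11) and Fmod (-0.04).

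Of 8 other genes of the family listed, 7 were measured. Of these, 4 were above 0 and 3 below, beside 46.9% of all genes above 0. None reached 1.5-fold, and the median was 0.04. It was -0.02 after repeated quantile normalization, with 3 above 0. Ecm2, which encodes a matrix protein related to decorin, was highest at 0.27 (8.86 on the wild-type array and 9.13 on the transgenic one) and Optc lowest at -0.11. Podn, which encodes podocan, was at 8.80 and 9.02, a difference of 0.22. Podn and Nyx (0.04) are named after their values were seen. Only Ecm2, Podn and Nyx passed the level filter, and the 3 genes below 0 were all under it.

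Collagen genes whose products these proteoglycans bind differed by less than 1.5-fold. All 14 passed the level filter, and 9 of them were above 0 and 5 below, beside 53.5% of filtered genes above 0, with a median of 0.16. Col6a3, a chain of the beaded collagen VI that biglycan and decorin bind, was highest at 8.81 on the wild-type array and 9.39 on the transgenic one (0.58, just under the rule of size). Col11a1, a minor fibrillar chain of cartilage, was lowest at 6.96 and 6.72 (-0.24). The median of this list lay between that of all genes and that of the members.

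Enzymes that build the sugar chains showed no common direction. Of 30 such genes, 17 were above 0 and 13 below, beside 46.9% of all genes above 0. None reached 1.5-fold, and the median was 0.08. The 6 enzymes that make the linkage to the core protein had a median of -0.09, from Xylt2, a xylosyltransferase that starts the chain (-0.39), to Xylt1, its relative (0.14). Among 16 enzymes of chondroitin and dermatan sulfate, 10 were above 0 with a median of 0.17. Dse, the epimerase that turns chondroitin into dermatan sulfate, was highest at 7.46 on the wild-type array and 7.87 on the transgenic one (0.41), and Chsy3, a chondroitin synthase, lowest at 6.32 and 5.99 (-0.33). Chsy3 was under the level filter, which 11 of the 16 passed. Among 8 enzymes of keratan sulfate, 5 were above 0 with a median of 0.08, and 4 passed the level filter. The list ran from B3gnt7 (-0.38, under the level filter) to B3gnt2 (0.52), both acetylglucosaminyltransferases of chain extension. B3gnt2 was at 6.39 on the wild-type array, under the level filter, and at 6.91 on the transgenic one. The xylosyltransferase genes thus lay at opposite ends of their list.

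Of 23 ligands and receptors that bind members of the family, 14 were above 0, 7 below and 2 at 0, with a median of 0.06. Over all genes 46.9% were above 0. Tlr4, an innate immune receptor that biglycan and decorin can engage, was 1.57-fold higher (6.80 on the wild-type array and 7.45 on the transgenic one). Mstn, the muscle growth inhibitor myostatin that decorin can bind, was 1.52-fold lower (11.18 and 10.58). The count of 1 higher and 1 lower among 19 filtered genes is set against 2.66% and 1.71% of all filtered genes. For the TGF-beta ligands that decorin and biglycan bind, named here after their values were seen, Tgfb1 was at -0.04, Tgfb2 at 0.52 and Tgfb3 at 0.46. Among 11 proteases that cleave these proteoglycans or their relatives, 8 were above 0 with a median of 0.08. Mmp2, a gelatinase, was highest (10.86 and 11.19, 0.33) and Mmp9, another gelatinase, lowest (-0.38, under the level filter), and 5 of the 11 passed the level filter.

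**Figure D4:**
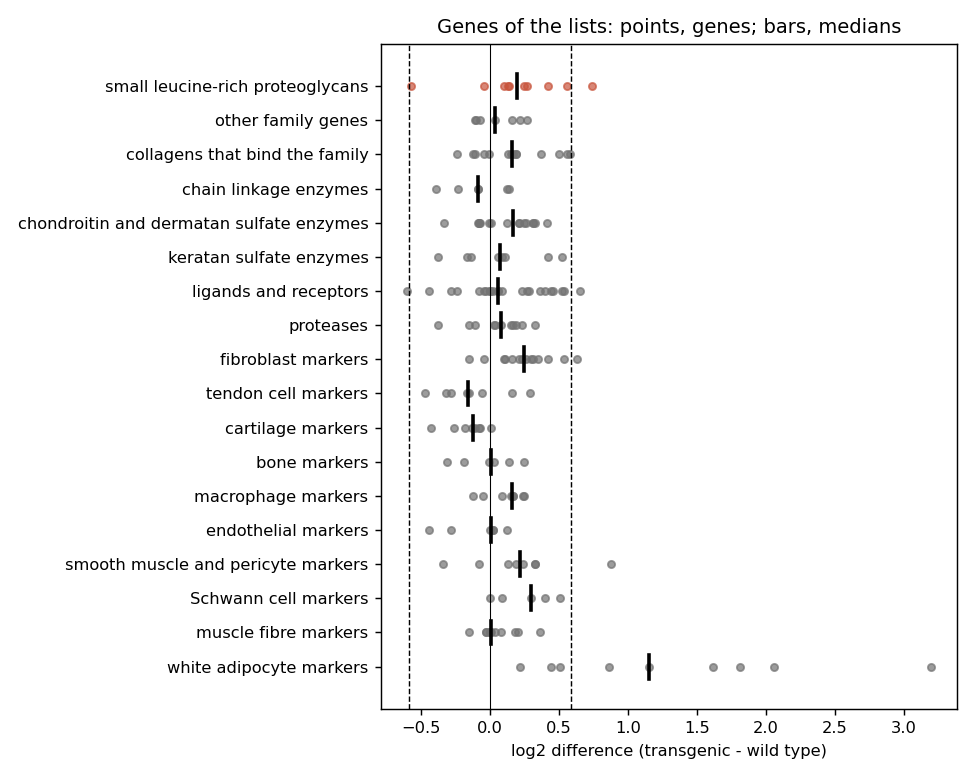
Log2 difference, transgenic minus wild type (x axis), of each measured gene (points) in each list (y axis), with bars at the list medians and dashed lines at 1.5-fold. The members (red) centre on 0.20. Near them lie fibroblast (0.25), smooth muscle and pericyte (0.22) and macrophage (0.16) markers, collagens (0.16) and chondroitin and dermatan sulfate enzymes (0.17). Tendon and cartilage markers centre on -0.16 and -0.12 and white adipocyte markers on 1.15.

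Markers of several cell types that the tissue can hold differed between the same arrays. Over all genes 46.9% were above 0, and over the genes that passed the level filter 53.5%. Of the filtered genes, 2.66% were higher by 1.5-fold. Of 14 fibroblast markers, 12 were higher, with a median of 0.25 and mean levels of 8.99 on the wild-type array and 9.23 on the transgenic one. Lox, which cross-links collagen, was 1.55-fold higher (0.63, or under the rule of size after quantile normalization), Thy1 was lowest (-0.15), and Tcf21 alone lay under 5.42 in both arrays. Of 9 white adipocyte markers all were higher, 6 of them by 1.5-fold and none under 5.42 in both arrays, with mean levels of 7.85 and 9.17. Lep, the hormone leptin, was 9.19-fold higher, from a wild-type value of 5.86 under the level filter, and Fabp4, a fatty acid carrier, 1.16-fold. The others past 1.5-fold were Adipoq (2.06), Cidec (1.81), Plin1 (1.62), Retn (1.15) and Slc7a10 (0.86). Slc7a10 was at 6.12 on the wild-type array, under the level filter, and at 6.98 on the transgenic one. The median of smooth muscle and pericyte markers was 0.22 over 8 genes, with mean levels of 9.08 and 9.29. The list ran from Kcnj8, a potassium channel of pericytes (-0.34), to Cnn1, a smooth muscle calponin (0.88), its sole gene past 1.5-fold. Cnn1 was at 6.47 on the wild-type array, under the level filter, and at 7.35 on the transgenic one. The part of these cell types in the differences of Lum, Prelp and Kera was not tested.

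Most tendon and cartilage markers were lower, as Chad was. Over all genes 9889 of 19938 were below 0, and 4409 of the 9974 that passed the level filter. Of 8 tendon cell markers 6 were lower, and of the 7 that passed the level filter 5 were. Their median was -0.16, with mean levels of 8.25 on the wild-type array and 8.13 on the transgenic one. Comp, a matrix protein of cartilage and tendon, was lowest (-0.47) and Thbs4, a thrombospondin of tendon and muscle, highest (0.29). Of 8 cartilage markers, 7 were lower with a median of -0.12 and mean levels of 6.04 and 5.89. Matn3, a cartilage matrilin, was lowest (-0.43) and Matn1, its relative, highest (0.01). Acan, Matn1, Matn3 and Hapln1 lay under 5.42 in both arrays. Sox9, Col2a1 and Col9a2, which passed the level filter and are named after their values were seen, were at -0.07, -0.11 and -0.18. Fmod and Kera, described above as made in tendon, were at -0.04 and 0.42, and 8 of the 10 members were above 0. The part of tendon or cartilage in the difference of Chad was not tested.

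Of 6 measured bone markers 5 were under 5.42 in both arrays, and the list ran from Alpl, alkaline phosphatase (-0.31), to Dmp1 (0.25). Macrophage markers had a median of 0.16 over 8 genes, from Adgre1 (-0.12) to C1qa (0.25), and mean levels of 7.66 and 7.77. Endothelial markers had a median of 0.01 over 6, from Kdr (-0.44) to Pecam1 (0.12), and it was below 0 after each of the 3 rescalings. Schwann cell markers had a median of 0.30 over 5, from Mal (0.00) to Mbp (0.51), and mean levels of 7.83 and 8.09, and their part in the members' differences was not tested. Muscle fibre markers had a median of 0.01 over 11, or -0.01 after median centring, from Myh2 (-0.15) to Myh1 (0.36).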

How the data were processed

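Log2 intensities of 35556 probe sets on 2 arrays were deposited, rounded to 2 decimals. They were made by the authors with RMA in Partek, per the submitters' processing notes, and versions and exact steps are not stated in the sources used here. The median was 6.06 in both arrays. RMA tends to compress large ratios. Scanner intensities were not used here, and precision is limited by having 1 array a group.

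Gene names came from the platform annotation (21789 probe sets named 1 symbol, 1621 several and 12146 none). Of the first kind, 21698 matched a RefSeq table of GRCm38.p6 through Entrez identifiers, and no symbol changed. Where a gene had several probe sets (999 genes), the one with the highest mean was used. With 1 array per group no test was possible, and no p-value or SD was computed. Counts used a 1.5-fold rule and the level filter (python 3.11.15, pandas 2.3.3, numpy 2.4.6, statsmodels 0.14.6 for loess with span 0.3, matplotlib 3.10.9). The counting code was run on shuffled differences with planted changes so large that all had to pass. That run checks the code and says nothing on how well the rule finds real changes. The members, lists and rules were chosen with earlier results of these data known. The text names the members, Stx4a, the highest and lowest gene of each list and list genes past the rule of size, and says where another was chosen later. Ly6a, Cfd, Bglap and Tsku, also listed, were not analysed here. Alternatives were the probe set rule, level filter, 2-fold rule and 3 rescalings.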

Additional observations from a re-analysis of the deposited data

How the results depend on the processing

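Across 9 alternative settings and 1 added after seeing the data (leaving Chad and Omd out of the median), 78 of 82 recomputed values kept their direction and stayed within 0.1 log2 units, or within 1.5 times for counts. The 4 others were counts of members past the rule of size. With a 2-fold rule, 0 members were higher, since Lum at 0.74 is under a doubling. The number of members lower by 1.5-fold was 1 (Chad) after median centring, after loess and after quantile normalization, in place of 0. Over these 3 rescalings, Lum ran from 0.70 to 0.72, Prelp from 0.53 to 0.54, Kera from 0.37 to 0.40, Fmod from -0.06 to -0.02 and Chad from -0.61 to -0.59, and the median of the members was 0.18 to 0.22, or 0.26 without Chad and Omd. Every member has 1 probe set, so the settings that vary the probe set rule could not change any of their values. Dropping the level filter could not change the median either, since it takes all 10 members. These values are counted among the 78. With 1 array per genotype, leaving out a replicate was not possible, and nothing here bears on the spread between mice. Signal over background limits Omd.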

Other observations

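Genes of proteoglycan core proteins outside the leucine-rich family, a list written after the members' values were known, had a median of 0.13. Of 23 such genes, 19 were above 0 and 4 below, beside 46.9% of all genes above 0. Among the 16 that passed the level filter 15 were above 0, beside 53.5% of filtered genes. After each of the 3 rescalings 18 of the 23 were above 0. Spock2, which encodes a testican, was 1.66-fold higher (7.88 on the wild-type array and 8.61 on the transgenic one) and the sole gene of the list past the rule of size. Genes named next were chosen after their values were seen. Hspg2, which encodes perlecan, the basement membrane proteoglycan that the Prelp product binds, was at 10.26 and 10.75 (0.49). Gpc4, a membrane-anchored glypican, was at 9.48 and 9.96 (0.48), and Sdc1, a syndecan, at 7.11 and 7.45 (0.34). Vcan, which encodes versican, was at 7.86 and 8.10 (0.24). Agrn (0.05), Sdc3 (0.02) and Gpc1 (0.06) lay near 0. Srgn, which encodes serglycin of blood cells and endothelium, went the other way at 11.17 and 10.89 (-0.28), the lowest of the list.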
